A study of Mus musculus with 50 samples.

Results

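Type I interferon-stimulated genes are described here in 50 libraries of mouse lymph nodes, 43 genes chosen by symbol out of 56600 gene entries. All 43 symbols were found in the table, and all 43 passed the filter on low counts that left 18077 genes for testing. The libraries came from C57BL/6J offspring at postnatal day 56, and the dams had been put on their diet 3 weeks before breeding. One diet lacked vitamin A (deficient, 25 libraries) and the other, matched in ingredients, held vitamin A at 20 IU/g (sufficient, 25 libraries). Poly(A) RNA of duodenal, jejunal, ileal and colonic nodes, which drain the gut, and of inguinal nodes, which drain skin, was sequenced in 5 libraries for each diet and node. Every deficient library was female. On the sufficient diet, libraries 3, 4 and 5 of each node were male and libraries 1 and 2 were female. The mice came from the second and the third litters. The deficient columns of the table carry the mark "3rd" and the sufficient columns do not, and its meaning is not stated. The diet was given to the dams, so effects of dam, litter and diet cannot be told apart. Nodes cannot be traced to single mice from the labels. Nor do these say that the 5 libraries of a group came from separate mice, so p-values measure the spread between these libraries, which may be technical.

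Type I interferons bind the receptor made of Ifnar1 and Ifnar2, whose kinases Jak1 and Tyk2 phosphorylate transcription factors such as Stat2. A complex of these with Irf9 binds the interferon-stimulated response element in front of target genes, whose products block viral RNA, protein synthesis and particle release, or feed back on the pathway. In lymph nodes such genes are expressed at a basal level in the absence of infection, and plasmacytoid dendritic cells and macrophages are known sources of the interferons.

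By role the list held 17 antiviral effectors, 7 genes of the Isg15 system and of ubiquitin or ADP-ribose enzymes, 6 transcription factors and signalling genes, 2 RNA sensors, 3 genes of the p200 family, 2 Schlafen genes, 2 genes of secreted proteins and 4 others. They lie on 14 chromosomes, with 7 on chromosome 5 and 6 each on chromosomes 11 and 16. The Ifit3 and Ifit3b pair, the Oas1a and Oas1g pair and the Ifi203, Ifi204 and Ifi209 group are closely related copies, and how reads were shared between them is not certain.

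RefSeq promoter windows, which run from 250 bases before to 50 bases after a gene start on build GRCm38.p6, were found for 33 of the 43 genes. The core of the response element was searched on both strands as GAAA, any 2 bases and GAAA, and 16 of the 33 genes (48.5%) held it, against 1079 of all 27025 genes with a window (3.99%). Overlapping matches were counted separately. The windows of 4 genes are shown, the first 4 with a match in a fixed list of 10 genes whose values per library are given below. In that list Oas3, Cxcl10 and Bst2 also held a match, Irf7 had a window without one, and Mx1 and Usp18 had no window. Matched bases are in capitals, and each sequence is written in the direction of its gene. Isg15 lies at chr4:156200769-156201068 on the minus strand, Ifit1 at chr19:34640639-34640938 on the plus strand, Ifit3 at chr19:34583279-34583578 on the plus strand and Rsad2 at chr12:26456403-26456702 on the minus strand.
Isg15: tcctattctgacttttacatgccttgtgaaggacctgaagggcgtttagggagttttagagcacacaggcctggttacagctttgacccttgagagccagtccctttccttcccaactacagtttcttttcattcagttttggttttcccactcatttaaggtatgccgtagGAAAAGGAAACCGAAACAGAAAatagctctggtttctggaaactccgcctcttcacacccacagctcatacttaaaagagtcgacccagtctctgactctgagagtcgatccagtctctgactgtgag
Ifit1: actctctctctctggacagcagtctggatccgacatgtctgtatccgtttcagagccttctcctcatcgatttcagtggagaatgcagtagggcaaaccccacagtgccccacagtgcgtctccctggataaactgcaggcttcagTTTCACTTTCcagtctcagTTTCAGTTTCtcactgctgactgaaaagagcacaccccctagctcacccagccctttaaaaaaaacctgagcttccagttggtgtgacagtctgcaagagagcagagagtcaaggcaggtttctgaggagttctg
Ifit3: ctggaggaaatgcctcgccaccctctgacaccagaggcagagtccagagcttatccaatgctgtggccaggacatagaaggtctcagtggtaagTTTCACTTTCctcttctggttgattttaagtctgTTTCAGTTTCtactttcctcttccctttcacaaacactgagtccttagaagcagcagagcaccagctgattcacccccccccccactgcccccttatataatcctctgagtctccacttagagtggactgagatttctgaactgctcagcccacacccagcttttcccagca
Rsad2: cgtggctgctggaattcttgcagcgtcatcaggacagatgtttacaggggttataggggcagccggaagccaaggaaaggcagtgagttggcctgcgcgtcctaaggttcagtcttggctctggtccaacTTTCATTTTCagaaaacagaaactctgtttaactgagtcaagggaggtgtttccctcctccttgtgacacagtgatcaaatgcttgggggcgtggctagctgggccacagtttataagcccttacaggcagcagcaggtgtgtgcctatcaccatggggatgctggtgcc
In Isg15 there were 3 overlapping matches that began 78, 72 and 66 bases before the gene start. In Ifit1 the 2 matches began 104 and 85 bases before the start, in Ifit3 they began 156 and 122 bases before it, and in Rsad2 the single match began 120 bases before it. In Ifit1, Ifit3 and Rsad2 the match is on the opposite strand, so the printed strand reads TTTC, 2 bases and TTTC. A match describes letters only and says nothing about binding in these nodes.

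Estimated counts per library summed to between 5335369 and 8904722, with a median of 7640371. Levels are given in CPM, the count scaled to library size with the TMM method, and refer to one gene at a time because they are not corrected for length. The T cell markers Cd3e, Cd3g, Cd4 and Cd8a, which mark a main cell type of lymph nodes, summed to 470 to 871 CPM. In 10 libraries, all deficient, the transcript Gm19220 made up under 3% of the counts (1.03 to 1.7%), and it made up 5.37 to 9.83% in the other libraries. In 4 libraries, all duodenal, pancreas markers made up more than 1% of the counts. Mitochondrial transcripts made up 0.743 to 2.9% of each library. These nodes are bulk samples, so fewer cells of a type and less RNA per cell cannot be told apart.

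The genes of the interferons themselves were nearly undetected. Ifnb1, Ifna1, Ifna2, Ifna4, Ifna5, Ifna13, Ifne, Ifnk, Ifnl2 and Ifnl3 each summed to between 0 and 4.01 estimated counts over all 50 libraries, none passed the filter, and no level was detectable at this depth. The receptor chains Ifnar1, Ifnar2, Ifnlr1 and Il10rb had counts in all 50 libraries.

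Most of the 43 genes varied more between libraries than the typical gene. Over the 50 libraries their SD of log2 CPM had a median of 0.593, with a range from 0.258 for Epsti1 to 1.382 for Ifit3b, against a median of 0.26 over 12227 genes with a mean of at least 5 CPM. Ifit3b, a copy of the translation inhibitor Ifit3, spanned 1.75 to 99.7 CPM, and Ifit3 spanned 10.7 to 446 CPM. Isg15, a ubiquitin-like protein that is attached to other proteins, spanned 5.68 to 183 CPM. At the other end, the epithelial-stromal interaction gene Epsti1 spanned 181 to 400 CPM and the nuclear body protein Sp100 spanned 273 to 629 CPM.

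To compare whole libraries, each gene's log2 CPM was set relative to its mean over the 50 libraries and the 43 values were averaged into a relative level on the log2 scale. Deficient duodenal libraries 1 to 5 stood at -0.446, -0.227, -0.027, -0.592 and -0.581, against -0.205, -0.268, -0.524, -0.123 and -0.513 in sufficient duodenal libraries. Deficient jejunal libraries stood at -0.198, -0.354, -0.22, 0.313 and -0.519, against -0.374, -0.313, -0.393, -0.342 and -0.269 in sufficient jejunal libraries. The diets overlapped in both nodes, and the sufficient jejunal libraries lay closest together of all 10 groups, with an SD of 0.049.

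Deficient ileal libraries stood at 0.525, 0.835, 0.606, 1.895 and -0.179, against 0.272, 0.436, -0.34, -0.459 and -0.4 in sufficient ileal libraries. Deficient ileal libraries 1 to 4 lay above every sufficient one, and library 5 lay below both sufficient females. Deficient colonic libraries stood at 0.852, 1.352, 0.754, -0.339 and -0.396, against -0.489, -0.379, -0.744, -0.72 and -0.46 in sufficient colonic libraries. Here deficient libraries 1, 2 and 3 were high and libraries 4 and 5 lay beside the highest sufficient library. Deficient inguinal libraries stood at 0.961, 1.135, 0.098, 0.321 and -0.773, against -0.16, 0.168, 0.629, 0.378 and 0.794 in sufficient inguinal libraries. The deficient inguinal group held both higher and lower libraries than any sufficient one.

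**Figure D1:**
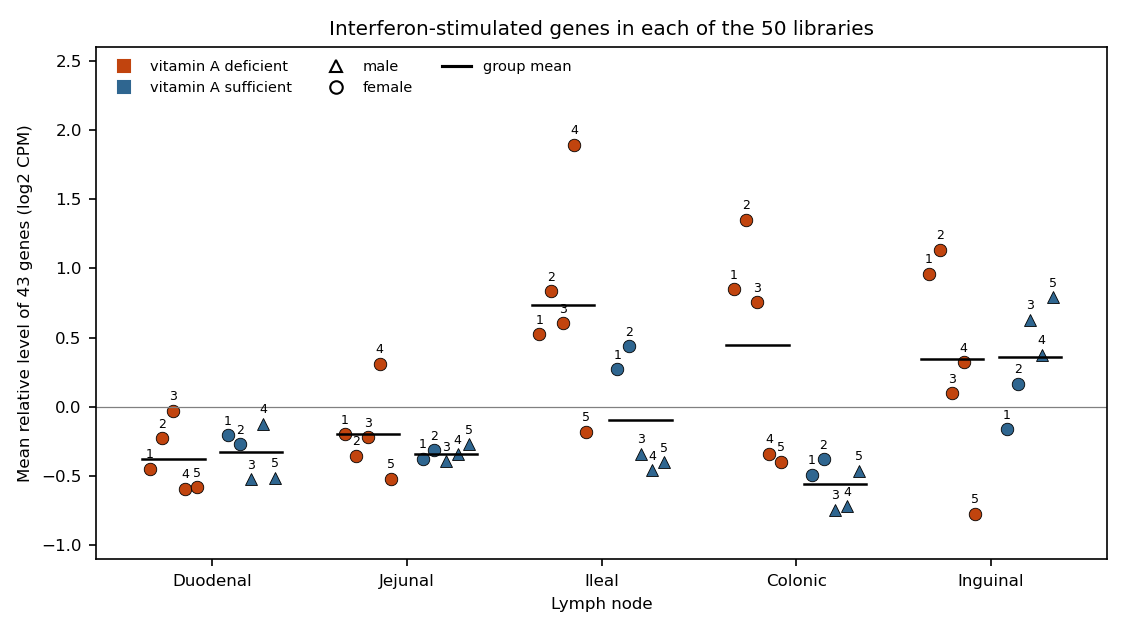
Mean relative level of the 43 genes (log2 CPM minus each gene's mean over 50 libraries, averaged over genes) in each library, by node and diet; numbers are library numbers, circles female, triangles male, bars group means. Deficient ileal library 4 stands at 1.895, and the sufficient jejunal libraries lie between -0.393 and -0.269.

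The spread of the 43 genes within groups was widest in deficient ileal, colonic and inguinal nodes. The median SD of log2 CPM of the 43 genes was 0.784 in deficient ileal, 0.678 in deficient colonic and 0.676 in deficient inguinal nodes, against 0.44, 0.283 and 0.423 in sufficient ileal, colonic and inguinal nodes. Over 12227 genes the same medians were 0.201, 0.196 and 0.2 in the deficient groups and 0.233, 0.228 and 0.211 in the sufficient groups. In duodenal and jejunal nodes the members' medians were 0.283 and 0.331 on the deficient diet and 0.272 and 0.264 on the sufficient diet.

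**Figure D2:**
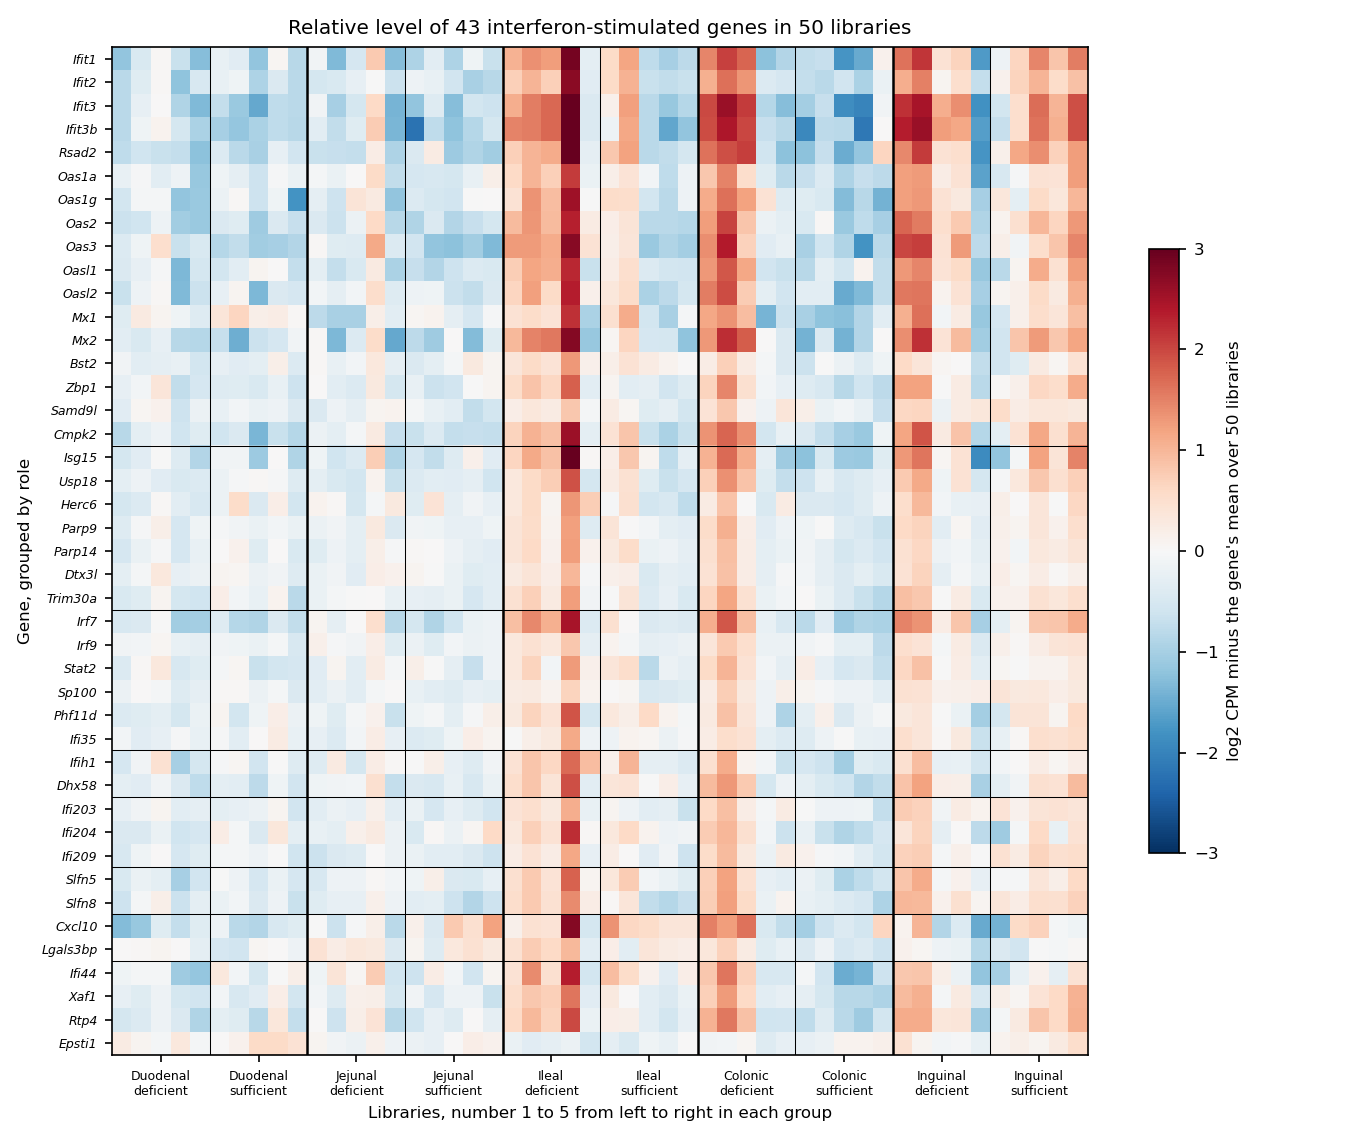
Relative level (log2 CPM minus the gene's mean over 50 libraries, red high and blue low) of each of the 43 genes in each library, genes grouped by role and libraries by node, with the deficient group left of the sufficient group. The column of deficient ileal library 4 is red for nearly all genes, and Epsti1, in the bottom row, has the palest colours.

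Deficient ileal library 4 carried much of its group. It was the highest of its group for all 43 genes and the highest of all 50 libraries for 41 of them. Its 43 genes summed to 10070 CPM, against a mean of 4612 CPM over the other 4 deficient ileal libraries, and it supplied 35.3% of the group's sum. The median ratio of the highest library to the mean of the other 4 was 2.66 over the 43 genes and 1.23 over 12227 genes. The ratio was 6.05 for Cxcl10, 5.82 for Rsad2, 5.1 for Isg15 and 4.58 for Ifit3, with 1.12 as the smallest value. Without this library the group's mean relative level fell to 0.447, against 0.736 with it. Its total of 7302677 estimated counts, its 6.25% of Gm19220 and its 2.04% of mitochondrial transcripts lay inside the ranges of the other libraries. Its cell type markers did not all do so. Summed monocyte (238 CPM) and lymphatic endothelial markers (508 CPM) were the highest of all 50 libraries. Sinus macrophage (2160 CPM) and adipose markers (1060 CPM) were the highest of its group, and T cell markers (680 CPM) the lowest. The part of these cell types in its level was not tested.

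By this ratio the other groups depended less on one library. In deficient colonic nodes library 2 was highest for 40 of the 43 genes, the median ratio was 1.97 and the group mean without it was 0.218, against 0.445 with it. In deficient inguinal nodes library 2 was highest for 31 genes and library 1 for 12, with a median ratio of 1.85. Deficient jejunal library 4 was highest for 37 genes, with a median ratio of 1.42. In deficient duodenal nodes library 3 was highest for 31 genes at a median ratio of 1.35. On the sufficient diet the median ratios lay between 1.3 in duodenal and 1.67 in ileal nodes. Library 5 was the low end of the deficient inguinal group at -0.773, and it held the lowest value of all 50 libraries for 9 genes.

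The diet was compared in each node by edgeR's quasi-likelihood test in one model with a sex term, with p adjusted over 18077 genes and a threshold of 0.05. In ileal nodes 9 of the 43 genes were higher on the deficient diet and 0 lower, where 2.78% of all genes were higher and 3.03% lower. In colonic nodes 12 were higher and 0 lower, where 1.29% of all genes were higher and 0.963% lower. All 43 fold changes were positive in both nodes, with medians of 0.75 in ileal and 1.17 in colonic nodes on the log2 scale and medians near 0 over all genes. In duodenal, jejunal and inguinal nodes 0 of the 43 passed, where 10.3%, 4.61% and 0.852% of all genes passed in either direction. At an unadjusted p under 0.05 there were 0, 1 and 0 genes in duodenal, jejunal and inguinal nodes, against 33 in ileal and 39 in colonic nodes, and DESeq2 and limma-voom also called 0 in those 3 nodes. In ileal and colonic nodes DESeq2 called 13 and 16 genes and limma-voom called 5 and 1. The members called in ileal and colonic nodes shared 6 genes, Ifit3b, Irf7, Mx2, Oas3, Slfn8 and Zbp1, which is 66.7% of the ileal and 50% of the colonic list.

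Oas3, a synthetase whose product activates the ribonuclease that cuts viral RNA, had the smallest adjusted p in ileal nodes. It stood at 70.5, 70.4, 62.7, 193 and 39.2 CPM in deficient ileal libraries 1 to 5, against 32.4, 37.4, 13.2, 15.2 and 14.1 CPM in sufficient ileal libraries. Every deficient library lay above every sufficient one, with a log2 fold change of 1.84 ± 0.475 (SE; edgeR adjusted p = 0.0119). In colonic nodes it stood at 75.7, 151, 46.5, 22.8 and 24.8 CPM on the deficient diet, against 14.6, 18.8, 15.3, 8.12 and 16.3 CPM on the sufficient diet. The groups again did not overlap, and the log2 fold change was 2.00 ± 0.503 (edgeR adjusted p = 0.0207).

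Oas3 was also separate between the diets in duodenal and jejunal nodes, as 1 of 43 genes in each, where 3.71% and 2.77% of all genes lay wholly higher on the deficient diet. It stood at 21.5, 26.4, 40.8, 18.1 and 21 CPM in deficient duodenal libraries, against 15.9, 17.1, 14, 14.4 and 15.6 CPM in sufficient ones. In jejunal nodes it stood at 29.5, 22.3, 22.1, 64.1 and 21.6 CPM on the deficient diet, against 19.4, 12.5, 12.1, 13.8 and 11.4 CPM on the sufficient diet. The lowest deficient library was above the highest sufficient one in both nodes, yet neither comparison passed (edgeR adjusted p = 0.509 and 0.256). In inguinal nodes Oas3 overlapped, at 116, 123, 38.8, 70.7 and 16.6 CPM on the deficient diet, against 32.7, 26.9, 42, 51.7 and 79.6 CPM on the sufficient diet. No other member was separate in more than one node: Sp100 was in ileal nodes, and Zbp1 and Slfn8 were in colonic nodes. With Oas3 that made 2 of 43 in ileal and 3 of 43 in colonic nodes, where 2.67% and 2.05% of all genes lay wholly higher.

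Irf7, the transcription factor that amplifies interferon production, passed in both nodes. It stood at 206, 302, 234, 616 and 83.1 CPM in deficient ileal libraries, against 156, 113, 82.4, 85.1 and 81.9 CPM in sufficient ileal libraries. Deficient ileal library 5 fell among the sufficient ones, and the log2 fold change was 1.49 ± 0.41 (edgeR adjusted p = 0.0197). In colonic nodes Irf7 stood at 236, 407, 207, 95.1 and 79.1 CPM on the deficient diet, against 62.8, 87.3, 51.9, 59.4 and 57.7 CPM on the sufficient diet. Only library 5 overlapped there, and the log2 fold change was 1.70 ± 0.419 (edgeR adjusted p = 0.0177).

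Ifit3 passed in colonic but not in ileal nodes. In colonic nodes it stood at 171, 259, 184, 23.6 and 17.4 CPM on the deficient diet, against 20.8, 26.5, 11.6, 10.7 and 39.8 CPM on the sufficient diet, a log2 fold change of 2.50 ± 0.696 (edgeR adjusted p = 0.0413). Deficient libraries 4 and 5 lay among the sufficient ones. In ileal nodes it stood at 91.7, 125, 141, 446 and 31.9 CPM on the deficient diet, against 47.5, 101, 24.1, 19.3 and 23.4 CPM on the sufficient diet, with a log2 fold change of 1.90 ± 0.639 (edgeR adjusted p = 0.0703). The difference between the nodes was not tested.

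Isg15 and Rsad2 did not pass in either node. Isg15 stood at 33.7, 47.9, 39.9, 183 and 22.2 CPM in deficient ileal libraries, against 24.9, 38.4, 23, 12.6 and 17.8 CPM in sufficient ones (edgeR adjusted p = 0.0731). In colonic nodes it stood at 45, 70.8, 46.6, 17.9 and 10.2 CPM on the deficient diet, against 9.12, 15.7, 10, 9.85 and 16.8 CPM on the sufficient diet (edgeR adjusted p = 0.0948). Rsad2, known as viperin, which makes a chain-terminating nucleotide, stood at 21.2, 26.2, 28, 125 and 10.6 CPM in deficient ileal libraries, against 22.7, 30.2, 7.27, 7.62 and 8.83 CPM in sufficient ones (edgeR adjusted p = 0.2). Without library 4 the deficient ileal mean of Rsad2 was 21.5 CPM, below both sufficient females.

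Ifit1, a sensor of foreign RNA caps, stood at 42.3, 53.6, 49.3, 150 and 16.5 CPM in deficient ileal libraries, against 30.3, 46.7, 11.9, 10.1 and 11.7 CPM in sufficient ones (edgeR adjusted p = 0.163). The Mx1 gene, of the dynamin-like antiviral GTPases, stood at 62.1, 67.4, 60.6, 209 and 23.8 CPM in deficient ileal libraries, against 63.9, 99.8, 31, 23.3 and 43.9 CPM in sufficient ones (edgeR adjusted p = 0.549). In both genes the higher of the sufficient females lay above deficient library 1. In colonic nodes Mx1 stood at 103, 118, 87.5, 17.1 and 29.2 CPM on the deficient diet, against 23.3, 19.7, 19, 24.6 and 37 CPM on the sufficient diet (edgeR adjusted p = 0.146), with deficient library 4 the lowest of both groups.

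Usp18, the protease that removes Isg15 and dampens receptor signalling, stood at 52, 62.5, 70.8, 158 and 29.3 CPM in deficient ileal libraries, against 50.3, 57.9, 32.5, 26.2 and 29.6 CPM in sufficient ones (edgeR adjusted p = 0.102). The chemokine gene Cxcl10, whose product draws Cxcr3-bearing T cells, stood at 29.1, 36.3, 35.3, 180 and 18.1 CPM in deficient ileal libraries, against 67.3, 40.8, 38.6, 34 and 34.2 CPM in sufficient ones (edgeR adjusted p = 0.589). Apart from library 4 the deficient values lay within or below the sufficient range, and their mean was 29.7 CPM. Bst2, or tetherin, which holds budding virus at the cell surface, stood at 144, 168, 150, 280 and 126 CPM in deficient ileal libraries, against 128, 152, 134, 122 and 114 CPM in sufficient ones (edgeR adjusted p = 0.126).

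**Figure D3:**
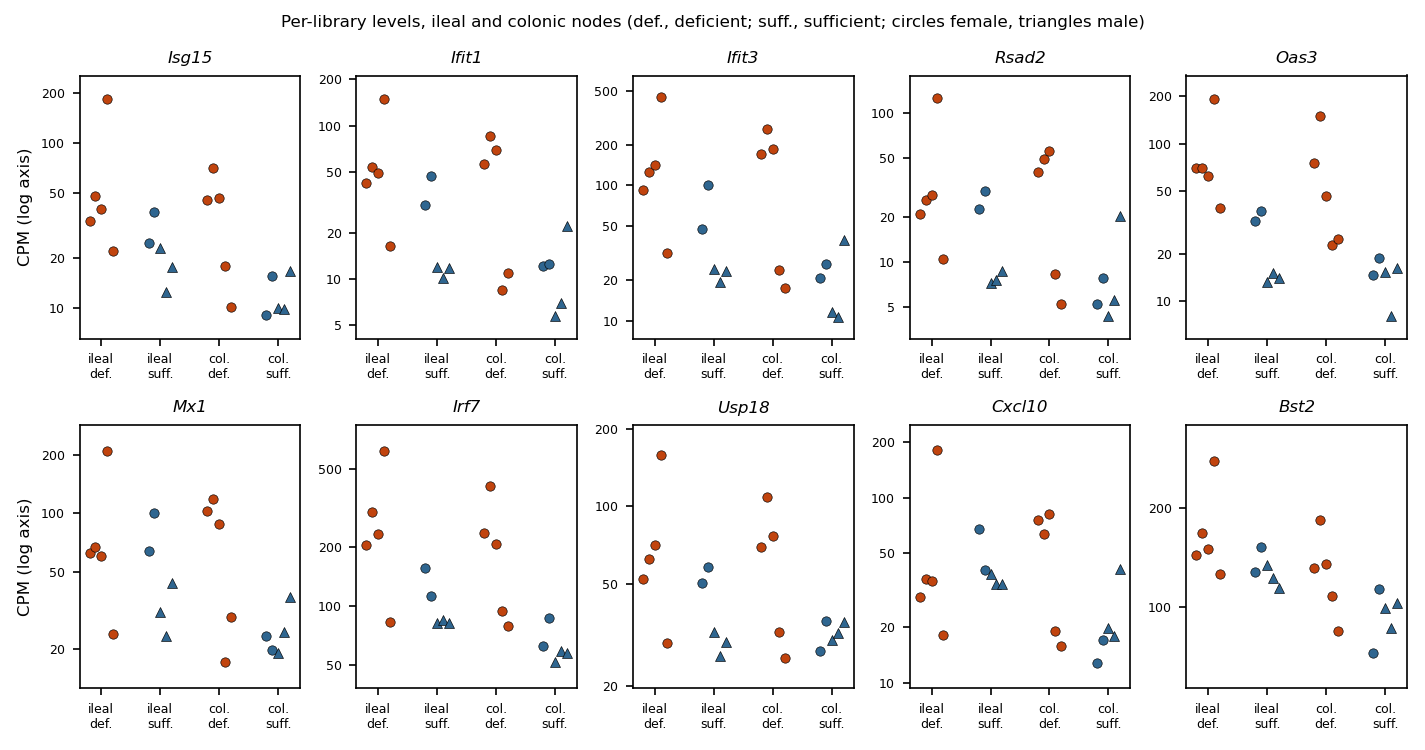
Level in CPM (log axis) of 10 genes in each ileal and colonic library, deficient in red left of sufficient in blue, circles female and triangles male. In Oas3 the diets do not overlap in either node, and in Cxcl10 the deficient ileal group lies at 18.1 to 36.3 CPM apart from library 4 at 180 CPM.

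The calls in both nodes rested on single libraries. Without deficient ileal library 4, 0 of the 43 passed in ileal nodes and the median log2 fold change was 0.41, against 9 and 0.75 with it, and Oas3 then had an edgeR adjusted p of 0.0929. Without deficient ileal library 5, which was the low one, 22 passed. Without deficient colonic library 2, 0 passed in colonic nodes and the median was 0.89, against 12 and 1.17 with it. Without deficient colonic library 5, 22 passed. Among the libraries of the sufficient diet, leaving out ileal library 4 or 5 left 5 calls in ileal nodes, and leaving out colonic library 1, 2, 3, 4 or 5 left 2, 6, 3, 4 or 7 calls in colonic nodes. Leaving out deficient colonic library 1 or 3 left 3 or 5 calls there. Leaving out deficient inguinal library 5, which enters only the shared spread, gave 14 calls in ileal nodes.

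Females alone gave no call. With the 5 deficient and the 2 sufficient female libraries of each node, 0 of the 43 passed, and the medians were 0.52 in ileal, 0.96 in colonic and 0.35 in inguinal nodes. In inguinal nodes the median with all libraries was -0.008, with 25 of 43 genes negative. Without the sex term 17 passed in ileal and 24 in colonic nodes. Without the 10 libraries low in Gm19220, which include deficient ileal libraries 2 and 3 and deficient colonic libraries 2, 3 and 5, 11 passed in ileal and 0 in colonic nodes, with medians of 0.92 in each. Markers of monocytes (Ly6c2, Ccr2, Chil3, F13a1 and Fcgr1) moved with the diet. They summed to 129 to 238 CPM in deficient ileal libraries, against 64.2 to 82.6 CPM in sufficient ones, and to 150 to 226 CPM in deficient colonic libraries, against 73.8 to 87.3 CPM in sufficient ones. Of the 5 markers 3 passed as higher in ileal and 2 in colonic nodes. In jejunal nodes, where no member passed, they summed to 110 to 156 CPM on the deficient diet, against 70.9 to 112 CPM on the sufficient diet. They also summed to 111 to 156 CPM in deficient duodenal libraries, against 61.3 to 97.6 CPM in sufficient ones, with 2 of 5 higher, and to 144 to 235 CPM in deficient inguinal libraries, against 110 to 197 CPM in sufficient ones, with 0 of 5 passing. T cell markers summed to 680 to 801 CPM in deficient ileal libraries, against 470 to 590 CPM in sufficient ones, with 3 of 4 higher. Markers of plasmacytoid dendritic cells summed to 366 to 511 CPM in deficient ileal libraries and 369 to 492 CPM in sufficient ones. Sinus macrophage markers went down, to 1530 to 2160 CPM in deficient ileal libraries, against 2170 to 2930 CPM in sufficient ones. In colonic nodes they summed to 744 to 1280 CPM on the deficient and 1020 to 1460 CPM on the sufficient diet. The part of these cell types in the result was not tested.

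Whether the diet acted differently on gut-draining and inguinal nodes was tested with an interaction term. None of the 43 passed, where 0.935% of all genes did, and 4 had an unadjusted p under 0.05 (DESeq2 and limma-voom called 0). All 43 estimates were positive, with a median of 0.43 and a range from 0.07 to 0.95 on the log2 scale, so the diet difference was estimated higher in the gut nodes without passing the test. With females only the median was -0.055.

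**Figure D4:**
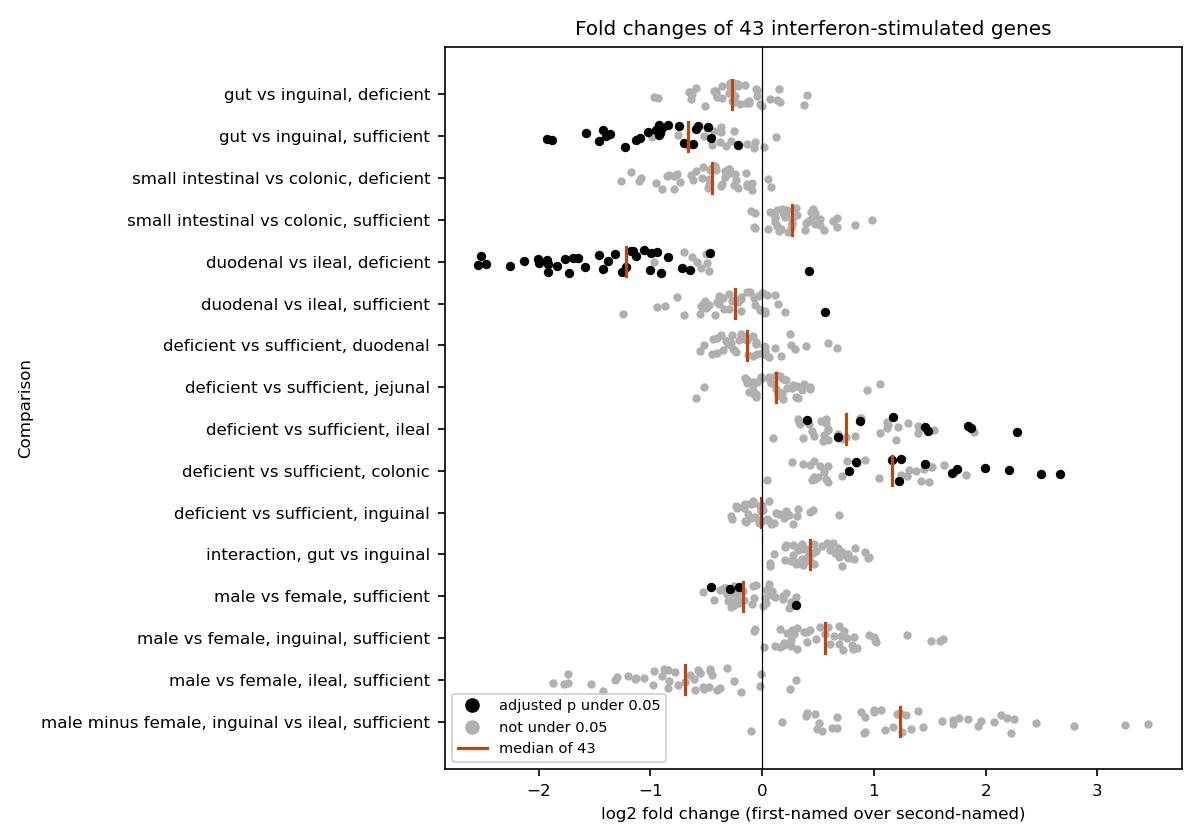
Log2 fold change of each of the 43 genes in each comparison, positive where the first-named group was higher; black points passed at an adjusted p under 0.05 and bars are medians. The interaction is the deficient minus sufficient difference in gut nodes minus that in inguinal nodes, and 34 genes passed as lower in duodenal than ileal nodes on the deficient diet.

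Gut-draining nodes were set against inguinal nodes within each diet. In sufficient mice 25 of the 43 genes were lower in gut nodes and 0 higher, where 7.3% of all genes were lower and 9.85% higher. The median log2 fold change was -0.66 and 41 of 43 were negative. Of the antiviral effectors 14 of 17 were lower, with a median of -1.13, and 3 of 6 transcription factors and signalling genes were lower. Of the Isg15 system 2 of 7 were lower, and of the RNA sensors 0 of 2 were. Cell type markers moved with the same comparison. Lower in gut nodes were 3 of 4 T cell, 2 of 5 monocyte and 3 of 7 plasmacytoid dendritic cell markers, with list medians of -0.44, -0.80 and -0.23. B cell markers summed to 1310 to 2220 CPM in sufficient gut libraries, against 1940 to 2520 CPM in sufficient inguinal ones. Higher were 5 of 6 sinus macrophage and 3 of 3 lymphatic endothelial markers, with medians of 1.55 and 1.24, and 1 of the plasmacytoid dendritic cell markers, while 1 sinus macrophage marker was lower. The plasmacytoid list, which holds Klk1, summed to 4010 CPM in sufficient duodenal library 5, the library highest in pancreas markers. It summed to 363 to 609 CPM in the other sufficient libraries. The part of these cell types and of pancreas RNA in the result was not tested.

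Sp100 had the smallest adjusted p, with a median of 330 CPM and a range of 273 to 404 CPM over the 20 gut libraries, against 467 CPM and 438 to 494 CPM over the 5 inguinal libraries. The groups did not overlap, and the log2 fold change was -0.49 ± 0.084 (edgeR adjusted p = 2.76e-05). Ifi203 and Ifi209 did not overlap either, by narrow margins. Their highest gut values were 312 and 240 CPM, against lowest inguinal values of 324 and 243 CPM. The share of all genes separate in this way was not computed, so these separations cannot be set against that of all genes. Slfn8, of the Schlafen family of growth regulators and nucleases, had a log2 fold change of -0.90 ± 0.163 (edgeR adjusted p = 6.61e-05). The p200 gene Ifi209 had -0.70 ± 0.142, Samd9l, an inhibitor of protein synthesis, had -0.59 ± 0.121, Oas2 had -1.36 ± 0.284 and Oas3 had -1.58 ± 0.334 on the log2 scale.

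Larger fold changes came with larger errors. Ifit3 ranged over 10.7 to 101 CPM with a median of 24.1 in sufficient gut libraries, against 29.1 to 163 CPM with a median of 87.2 in sufficient inguinal libraries, a log2 fold change of -1.88 ± 0.455 (edgeR adjusted p = 0.00233). Ifit1 and Rsad2 had -1.46 ± 0.417 and -1.42 ± 0.413 (edgeR adjusted p = 0.0107 and 0.0122). Bst2, Cxcl10 and Mx1 did not pass, with log2 fold changes of -0.07, 0.01 and -0.52.

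Whether this difference itself differed between the sexes was not tested. Sufficient inguinal males stood at a relative level of 0.629, 0.378 and 0.794, against -0.16 and 0.168 in the females. With only the male libraries of the sufficient diet, 28 genes were lower in gut nodes, with a median of -0.95. With all libraries and a sex term for each sufficient node, which sets the comparison at the female level, 0 passed and the median was -0.17. The female level of inguinal nodes rests on 2 libraries. This setting and the one with male sufficient libraries were chosen after seeing the data. With female libraries only 0 passed and the median was -0.16. Leaving out single libraries left between 17 (without sufficient inguinal library 5) and 30 calls. On the deficient diet 0 of 43 passed (DESeq2 and limma-voom also called 0), where 5.78% of all genes did. There 36 were negative, the median was -0.27 and 7 had an unadjusted p under 0.05.

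Small intestinal nodes were set against colonic nodes. None of the 43 passed on either diet, where 1.8% of all genes passed on the deficient and 3.91% on the sufficient diet. The medians had opposite signs, -0.44 on the deficient diet with 41 genes negative and 0.27 on the sufficient diet with 39 positive, and 22 and 6 genes had an unadjusted p under 0.05. DESeq2 called 1 gene on the deficient and 0 on the sufficient diet, and limma-voom called 0 on both. Without deficient ileal library 4, 5 genes were lower in small intestinal nodes on the deficient diet, 2 were without deficient colonic library 4, and the difference between the diets was not tested.

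Along the small intestine the deficient nodes gave the largest number of calls. In duodenal against ileal nodes 34 of 43 genes were lower and 1 higher on the deficient diet, where 2.73% of all genes were lower and 2.96% higher. The median log2 fold change was -1.22, and all 43 had an unadjusted p under 0.05. On the sufficient diet 0 were lower and 1 higher, where 5.12% of all genes were lower and 3.1% higher, the median was -0.24 and 4 had an unadjusted p under 0.05. On the deficient diet 15 of 17 antiviral effectors, 5 of 7 genes of the Isg15 system, 3 of 6 transcription factors and signalling genes, both RNA sensors, all 3 genes of the p200 family and both Schlafen genes were lower.

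Oas2 had the smallest adjusted p. It stood at 23.6, 24.3, 33.4, 17.9 and 17 CPM in deficient duodenal libraries, against 72.3, 93.1, 72, 187 and 43.9 CPM in deficient ileal libraries, with no overlap and a log2 fold change of -2.01 ± 0.392 (edgeR adjusted p = 0.000527). Irf7 stood at 79.4, 82.5, 110, 53.9 and 54.3 CPM in deficient duodenal libraries, against the ileal values given above, and only ileal library 5 overlapped (log2 fold change -1.92 ± 0.396, edgeR adjusted p = 0.001). Bst2 stood at 105, 90.2, 93.5, 97 and 76.6 CPM in deficient duodenal libraries, all below the lowest ileal value of 126 CPM (-0.91 ± 0.199, edgeR adjusted p = 0.00204).

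Rsad2 stood at 7.44, 8.36, 8.04, 7.72 and 5.28 CPM in deficient duodenal libraries, all below the lowest ileal value of 10.6 CPM (-2.51 ± 0.584, edgeR adjusted p = 0.00393). Slfn5, Slfn8 and Ifit2 had log2 fold changes of -1.32 ± 0.258, -0.998 ± 0.218 and -1.84 ± 0.408. In all, 12 members lay wholly below the ileal libraries, against 2.27% of all genes. Mx1 did not pass, at 35.5, 55.4, 48.5, 41.6 and 35.1 CPM in deficient duodenal libraries (-0.96, edgeR adjusted p = 0.245), where ileal library 5 at 23.8 CPM was the lowest of both groups.

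Epsti1 went the other way. It stood at 318, 284, 257, 333 and 258 CPM in deficient duodenal libraries, against 234, 212, 221, 237 and 181 CPM in deficient ileal libraries, a log2 fold change of 0.42 ± 0.1 (edgeR adjusted p = 0.00498). In sufficient mice it stood at 270, 294, 400, 397 and 359 CPM in duodenal libraries, against 221, 194, 244, 228 and 269 CPM in ileal libraries (0.56 ± 0.1, edgeR adjusted p = 0.00014). Both pairs of groups were separate, where 2.41% of all genes on the deficient and 1.71% on the sufficient diet lay wholly higher in duodenal nodes. Epsti1 was the only member that passed as higher in duodenal nodes on either diet.

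The number of calls on the deficient diet again turned on ileal library 4. Without it 11 members passed, 10 lower and 1 higher, and the median was -0.85; Irf7, Oas2, Slfn5, Slfn8 and Bst2 still passed and Isg15, Ifit1, Ifit3, Rsad2 and Oas3 did not. Without ileal library 5, 42 passed. Without the 4 duodenal libraries high in pancreas markers, which leaves 3 duodenal libraries on each diet, 11 passed as lower and the median was -1.19. Markers of another 2 cell types moved with this comparison on both diets. Sinus macrophage markers, among them Siglec1, which also stands in the list of other interferon-stimulated genes, summed to 880 to 1080 CPM in deficient duodenal and 1530 to 2160 CPM in deficient ileal libraries, and lymphatic endothelial markers to 150 to 201 CPM in deficient duodenal and 321 to 508 CPM in deficient ileal libraries. Of these lists 3 of 6 and 3 of 3 markers were lower in duodenal nodes on the deficient diet, and 4 of 6 and 3 of 3 on the sufficient diet, where 0 members were lower. Their part in the result was not tested.

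**Figure D5:**
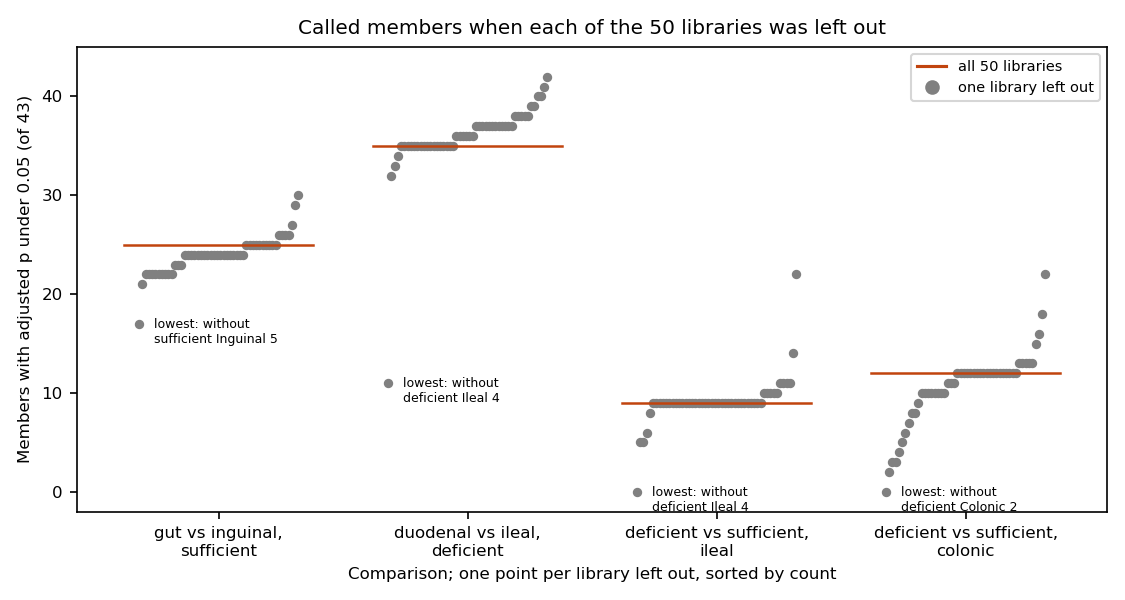
Number of the 43 genes with an adjusted p under 0.05 when each of the 50 libraries was left out in turn, one point per library, with the count from all libraries as a line. Leaving out deficient ileal library 4 gave 11 calls for duodenal against ileal nodes and 0 for the diet in ileal nodes, and leaving out deficient colonic library 2 gave 0 for the diet in colonic nodes.

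Male and female libraries could be compared on the sufficient diet only. With one sex term for all nodes, 1 member was higher in males and 3 lower, where 13.9% of all genes were higher and 12.9% lower. The higher gene was Epsti1 (log2 fold change 0.30 ± 0.065, edgeR adjusted p = 0.000643), and the lower ones were Stat2, a subunit of the transcription complex (-0.46 ± 0.143, edgeR adjusted p = 0.0154), Sp100 (-0.21 ± 0.071, edgeR adjusted p = 0.0234) and Samd9l (-0.29 ± 0.103, edgeR adjusted p = 0.0311). By limma-voom 5 members passed, and 1 did with a random block on library number within each diet.

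A common term averaged over nodes that went in opposite directions. In ileal nodes the males stood at -0.34, -0.459 and -0.4, against 0.272 and 0.436 in the females, and 37 of 43 genes had every male below every female, against 14.5% of all genes. In inguinal nodes every male lay above every female, by relative level and for 29 of 43 genes, against 17.6% of all genes. In colonic nodes 18 genes and in jejunal and duodenal nodes 13 and 9 genes had every male below every female, against 11.1%, 17.8% and 14.2% of all genes. In the same order 2, 8 and 4 genes had every male above every female, against 11.9%, 19.7% and 15.7% of all genes. Fitted per node, 0 members passed in ileal and 0 in inguinal nodes, where 0.0443% and 0.083% of all genes passed. These fits were added after seeing the data. The medians were -0.69 in ileal nodes, with 19 genes lower at an unadjusted p under 0.05, and 0.57 in inguinal nodes, with 4 genes higher at that level. DESeq2 called 2 genes lower in ileal and 0 in inguinal nodes, and limma-voom called 0 in both. For ileal nodes DESeq2 gave no adjusted p for 28 of the 43 genes, so those could not be called.

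The difference between the sex effects of inguinal and ileal nodes was positive for 42 of 43 genes, with a median of 1.23. Both nodes were chosen after their opposite directions were seen, so the sign and the unadjusted p-values are no independent test. None passed, where 0% of all genes did, and 22 had an unadjusted p under 0.05 (DESeq2 and limma-voom called 0). With 3 males and 2 females in each node, sex and library number cannot be told apart, because males always had numbers 3 to 5.

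Genes around the pathway were counted from lists that hold no member. Of 58 other interferon-stimulated genes tested, 18 were higher on the deficient diet in ileal nodes and 9 in colonic nodes, with 0 lower in either, and the list medians were 0.51 and 0.48. Ly6a, a surface protein of lymphocytes and stem cells, had log2 fold changes of 1.08 ± 0.192 in ileal and 1.08 ± 0.19 in colonic nodes (edgeR adjusted p = 0.000182 and 0.000463). The apolipoprotein gene Apol9b was higher on the deficient diet in duodenal nodes (1.49 ± 0.208) and jejunal nodes (1.00 ± 0.208), where no member passed, with edgeR adjusted p = 1.94e-06 and 0.00193. In those nodes 4 and 3 of the 58 were higher and 0 lower, where 1144 and 504 of all 18077 genes were higher, and in inguinal nodes 0 passed.

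The same list was lower in gut than inguinal nodes for 29 genes and higher for 1 on the sufficient diet, for example Oas1c (-0.86 ± 0.12) and Slfn1 (-0.95 ± 0.142). It was lower in duodenal than ileal nodes for 27 and higher for 2 on the deficient diet, where the p200 family gene Ifi213 had -1.21 ± 0.262 and the helicase Ddx60 had -1.31 ± 0.285, and for 2 and 0 on the sufficient diet. Of 23 genes that lean towards interferon gamma, 7 were higher and 2 lower on the deficient diet in ileal nodes and 6 higher and 0 lower in colonic nodes, with Gbp4 higher in both (0.70 ± 0.14 and 0.57 ± 0.141). In gut against inguinal nodes of sufficient mice 8 were lower and 1 higher, and 1 was lower in duodenal than ileal nodes on the deficient diet.

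Upstream in the pathway, Socs3, a feedback inhibitor of cytokine receptors, was lower on the deficient diet in duodenal and jejunal nodes (-0.52 ± 0.145 and -0.54 ± 0.147). Of 15 sensors and adaptors, Tlr7, the endosomal sensor of single-stranded RNA, was higher on the deficient diet in colonic nodes (0.95 ± 0.225) and lower in duodenal than ileal nodes on that diet (-0.88 ± 0.206), together with Rigi (-0.755 ± 0.159) and Trim25 (-0.70 ± 0.139). Of the 4 receptor genes tested 0 passed for the diet in any node, with list medians from -0.06 to 0.10.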

How the data were processed

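RNA-seq of 50 poly(A) libraries was used as the estimated counts per gene that the authors deposited in 1 table of 56600 entries, of which 379 without a name stayed out. Of the nonzero values 0.122% were whole within 1e-06. Per the submitters' processing notes, kallisto, edgeR and limma were used, with GRCm39 and mm10 named as builds. The sources used here do not give tool versions or which step used which build. Promoters came from RefSeq on GRCm38.p6 and were used as sequence only.

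Estimated counts were rounded and filtered by edgeR's filterByExpr by group, which left 18077 genes, and scaled with TMM. edgeR 4.0.16 (R 4.3.3) fitted 10 group means of diet and node and a sex term with the quasi-likelihood test, with Benjamini-Hochberg adjustment and a threshold of 0.05. CPM are TMM-scaled, and log2 values used a prior count of 2. DESeq2 1.42.0 and limma-voom (limma 3.58.1), other scaling, filter and sex settings, a block on library number and leaving out libraries were tried. The scripts were tested on simulated data. Library totals of 5335369 to 8904722 limit precision for low genes. None of 100 pairs of libraries within groups agreed within sampling noise (chi-square per gene of at least 8.5). Figures used matplotlib 3.10.9.

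The members and lists were chosen with earlier results of these data known. Values per library are given for 10 fixed members. Up to 6 members per direction and comparison, and up to 3 genes per other list, were named by smallest adjusted p, with up to 4 members of largest single-library ratio. Sp100, Zbp1 and other members were also named where their libraries did not overlap, after their values were seen.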

Additional observations from a re-analysis of the deposited data

Results flagged for a closer look

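In 14 of 110 groups of 5 libraries examined, over 10 genes and the relative level, the highest or lowest library stood apart from the rest by more than 0.71 of the group's range. Chance gives about 1 in 20 such groups where values are normally distributed. The 10 genes were examined in CPM without a log, so that rate need not hold, and they are not independent of each other. All 14 stood apart at the high end. No group was flagged by the relative level, which is on the log2 scale. Deficient ileal library 4 accounted for 8 of them, with Isg15 at 183 CPM, Ifit1 at 150 CPM, Ifit3 at 446 CPM, Rsad2 at 125 CPM, Oas3 at 193 CPM, Mx1 at 209 CPM, Cxcl10 at 180 CPM and Bst2 at 280 CPM. In deficient jejunal library 4 Rsad2 stood at 15 CPM and Oas3 at 64.1 CPM. On the sufficient diet colonic library 5 stood apart for Rsad2 at 20.4 CPM and Cxcl10 at 41.3 CPM, ileal library 1 for Cxcl10 at 67.3 CPM, and duodenal library 4 for Bst2 at 127 CPM.

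On the sufficient diet the relative level of the 43 genes in males minus females was 0.597 in inguinal and -0.754 in ileal nodes, with every male above every female in inguinal nodes and every male below every female in ileal nodes. The difference of these 2 values was not tested. Tested gene by gene, the difference passed for 0 of 43 with edgeR, DESeq2 and limma-voom, and 22 had an unadjusted p under 0.05 with edgeR. The nodes were chosen for their opposite directions, so these counts are no independent test.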

How the results depend on the processing

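Over all alternatives for single members, 5526 values kept their direction and call, 618 lost the call and 0 called values changed direction. Most of these alternatives left out 1 library, often one in neither group compared. Such a setting acts only through the shared spread, scaling and sex term, so these totals say little about how far single libraries carried a call. Among counts of called members, in ileal nodes the 9 calls became 5 with limma-voom, 17 without the sex term and 0 with females only, and in colonic nodes the 12 calls became 1, 24 and 0, and 0 without the libraries low in Gm19220. For duodenal against ileal nodes the 35 calls on the deficient diet became 20 with limma-voom and 11 without the libraries high in pancreas markers, and the 1 call on the sufficient diet became 0 with females only. For gut against inguinal nodes the 25 calls became 0 with females only and 0 at the female level, a setting chosen after seeing the data. DESeq2 gave 1 call for small intestinal against colonic nodes on the deficient diet, 7 for male against female and 2 for male against female in ileal nodes, in place of 0, 4 and 0.

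Library numbers were not taken as pairs, since same-numbered libraries correlated at -0.205 to 0.402 in deficient and -0.129 to 0.474 in sufficient nodes, though 22 of 25 and 19 of 25 libraries correlated best with their own number. A fixed block on library number gave 21 ileal and 22 colonic diet calls, and 1 for the diet in duodenal nodes. This block joined deficient and sufficient libraries of the same number, which the labels do not link. Those of numbers 3 to 5 also differ in sex. A fixed block on number within each diet gave 30 calls for gut against inguinal nodes on the sufficient diet, against 25 without it. On the deficient diet it gave 1 call for these nodes. For duodenal against ileal nodes on the deficient diet it gave 39 calls, against 35 without it. It also gave 1 for small intestinal against colonic nodes on the sufficient diet. A random block on number within each diet, fitted with limma-voom, gave 4 calls for the diet in ileal nodes and 1 for the diet in colonic nodes. It gave 1 for male against female and 1 for small intestinal against colonic nodes on the sufficient diet.

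Leaving out 1 library gave 0 to 22 diet calls in ileal and 0 to 22 in colonic nodes, 11 to 42 for duodenal against ileal and 0 to 5 for small intestinal against colonic nodes on the deficient diet, 1 to 2 and 0 to 1 for these on the sufficient diet, 0 to 1 and 17 to 30 for gut against inguinal nodes on the deficient and sufficient diets, and 3 to 7 for male against female. Leaving out all 5 libraries of a diet and number gave 0 to 30, 0 to 29, 3 to 39, 0 to 19, 1 to 2, 0 to 1, 0 to 0, 13 to 33 and 1 to 6 in the same order. The causes were not tested. At these depths the interferon genes themselves could not be compared.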
